A study of Mus musculus with 16 samples.

Results

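The enzymes and carriers of the urea cycle, together with the main liver enzymes that release ammonia from glutamine and histidine, were followed across 4 groups of mouse livers. The 9 members described were chosen by name, as the table's Ensembl gene IDs that carry the symbols Nags, Cps1, Otc, Slc25a15, Ass1, Slc25a13, Asl, Gls2 and Hal. All 9 of 9 were found among the 35275 gene IDs of the table, and all 9 passed the filter on low values (at least 1 FPKM in at least 4 libraries), which kept 11298 genes. RNA sequencing had been done on 16 liver libraries in 4 groups of 4. The groups were wild-type mice (WT) on a control diet, WT mice on a diet containing ethanol, and mice lacking Zfp36l1 in the liver (LKO, liver-specific knockout) on each of these diets. No sex, age, strain, feeding time, diet composition or promoter driving the deletion was named in the labels, and nothing in them says whether mice were pooled, so p-values measure the spread between these libraries. Levels are given in FPKM (fragments per kilobase and depth of sequencing), a scale per gene length on which genes can be set side by side, and positions are on GRCm38. All 9 members are annotated as protein-coding.

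The urea cycle is the route by which the liver turns toxic ammonia into urea for excretion. Its opening steps run inside the mitochondria of hepatocytes and its later steps in the cytosol, so carriers in the inner mitochondrial membrane must move ornithine, citrulline and aspartate between the compartments. It works mainly in periportal hepatocytes, where portal blood enters the lobule, while perivenous hepatocytes at the other end bind leftover ammonia into glutamine. Ethanol oxidation in the liver loads the cytosol and mitochondria with NADH, and the carrier encoded by Slc25a13 belongs to the malate-aspartate shuttle, which moves such reducing equivalents into mitochondria.

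The libraries held 19069828 to 24768472 reads, worked out from the steps of the FPKM values, apart from WT ethanol library 2 with 9890436. In that library mitochondrial transcripts made up 22.5% of the reads, against 3.64 to 6.97% in the 15 others. Of the 11298 genes, 52.3% lay lower there than in every other library and 13.6% higher, so the ethanol difference averaged over genotypes is given for each member with all 16 libraries and again without this one. The other 15 libraries were also split within each group, libraries 1 and 2 from libraries 3 and 4, along a component holding 40% of the variance within groups, and the labels name no batch for it. Zfp36l1, the deleted gene, measured 14.9 ± 7.54 and 16.8 ± 6.37 FPKM in WT on the control and ethanol diets, and 1.17 ± 0.286 and 1.15 ± 0.61 in LKO (SD, n = 4 each), with no overlap between genotypes. Hepatocyte markers were abundant in every library, with a summed level of 47128 to 80339 FPKM over the 6 genes of the list. In WT ethanol library 2 the list was divided, with Apoa1 and Apoc3 at 34502 and 12143 FPKM, above at most 10826 and 4629 FPKM elsewhere, and Alb, Serpina1a and Fgb lower than in the 15 others.

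All members were well expressed in the liver. Over the 15 libraries other than WT ethanol library 2, mean levels were highest for Ass1 at 1328 FPKM and Cps1 at 710 FPKM, both at or above the 99.3rd percentile of the genes kept. Asl followed at 352 FPKM. Otc, Gls2 and the carriers Slc25a15 and Slc25a13 averaged 129, 116, 88.1 and 63.8 FPKM, and Hal and Nags were lowest at 43.2 and 17.8 FPKM. The ranges of neighbours in this order overlapped over the 15 libraries. Nags encodes the enzyme that makes N-acetylglutamate, the obligate activator of carbamoyl phosphate synthetase, and its level was the lowest although the enzyme it serves was among the highest. Recovered reads for Nags numbered 677 to 1709 in the 15 libraries, the fewest of the members, and those for Cps1 35941 to 163440.

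With all 16 libraries, no member passed the test for ethanol against the control diet. The counts by limma at an adjusted p under 0.05 were 0 of 9 in WT, where 4.18% of all genes passed, 0 of 9 in LKO, where 0.425% passed, and 0 of 9 for the difference averaged over the genotypes, where 7.78% passed. At an unadjusted p under 0.05 they were 2, 0 and 3 of 9, where 19.7, 9.19 and 21.6% of all genes did so. Nearest to the threshold was Slc25a13, whose averaged difference was −0.99 on the log2(FPKM + 1) scale (SE 0.302, adjusted p = 0.0538).

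Without WT ethanol library 2, Cps1 and Slc25a15 rose with ethanol and Slc25a13 fell, on the average of both genotypes. That is 3 of 9 members, where 20.5% of all genes passed, in both cases by limma at an adjusted p under 0.05. Upward it was 2 of 9, where 14.8% of all genes passed, and downward 1 of 9, where 5.7% passed. The median difference of the 9 members was 0.40 on the log2 scale, against 0.11 over all genes, and 6 of 9 members were higher on ethanol, as were 65.1% of all genes. In each genotype alone 0 of 9 passed, where 9.48% of all genes passed in WT and 3.62% in LKO, and the counts at an unadjusted p under 0.05 were 4 and 3 of 9, where 26.3 and 19% of all genes did so. When a term for the split of the libraries was added to this fit, 2 of 9 passed in WT (19.7% of all genes) and 2 of 9 in LKO (10.7%), in each case Cps1 upward and Slc25a13 downward. The averaged difference then passed for 4 of 9 (32.6% of all genes), with Ass1 as the addition. The split was drawn from these same values, so the term narrows the errors by construction, and these calls are no added support. Because the tissue was measured in bulk, fewer cells of a type and less RNA per cell cannot be told apart in any of these differences.

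**Figure D1:**
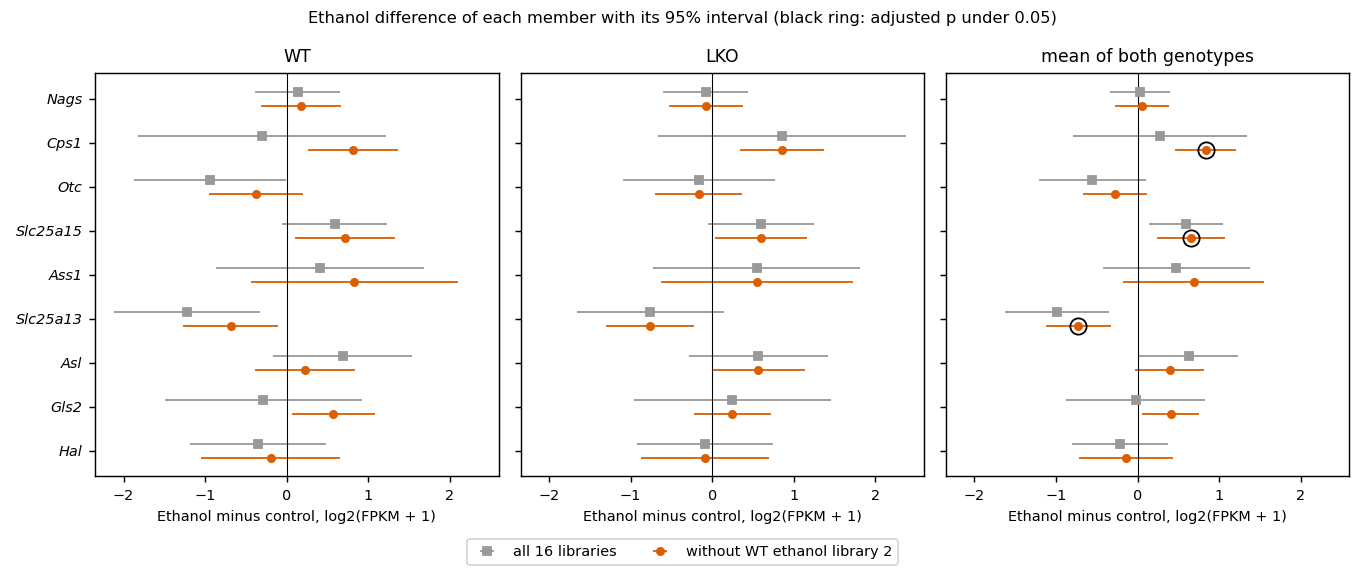
Difference between the ethanol and control diets for each member on the log2(FPKM + 1) scale (x axis), in WT, in LKO and as the mean of both, with 95% intervals from limma, for all 16 libraries (grey squares) and without WT ethanol library 2 (orange circles). Black rings mark adjusted p under 0.05, which only Cps1, Slc25a15 and Slc25a13 reached, on the average and without that library, and the grey interval of Cps1 is the widest in each panel.

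Carbamoyl phosphate synthetase, encoded by Cps1 (ENSMUSG00000025991, chr1:67123026-67231259, plus strand), fixes ammonia in the first committed step of the cycle. In WT on the control diet Cps1 stood at 339, 736, 485 and 411 FPKM in libraries 1 to 4, and on ethanol at 820, 36.5, 870 and 803 FPKM. In LKO its levels were 439, 534, 673 and 532 FPKM on the control diet and 950, 679, 1184 and 1188 FPKM on ethanol. Every ethanol library except WT ethanol library 2 was above every control library of its own genotype, and that library was 9.28-fold below the lowest of the 15 others. The averaged difference was 0.28 (SE 0.508, adjusted p = 0.817) with all 16 libraries and 0.84 (SE 0.177, adjusted p = 0.00444), or 1.78-fold, without that one. Within each genotype alone the values without it were 0.81 in WT (SE 0.26, adjusted p = 0.0602) and 0.86 in LKO (SE 0.241, adjusted p = 0.062). Cps1 differed upward on both sides of the split, with 0.71 (from 1 ethanol library) and 0.90 for WT and 0.73 and 0.99 for LKO. Scaling by the median of ratios, which took the median difference of all genes from 0.11 to −0.01, gave an averaged difference of 0.69 with the call kept (adjusted p = 0.0259). Cps1 was the 1 member of 9 whose diet groups did not overlap in LKO, where 12.3% of all genes did not overlap. In WT it was 0 of 9, where 10.1% of all genes did not overlap, and without library 2 it was again Cps1 alone, 1 of 9, where 20.7% did not overlap.

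Nags (N-acetylglutamate synthase, ENSMUSG00000048217, chr11:102145513-102149477, plus strand) ranged from 15.6 to 25.3 FPKM in WT controls and from 17 to 25.9 FPKM in WT on ethanol. In LKO it ranged from 13.9 to 18 FPKM on the control diet and from 11.6 to 21.7 FPKM on ethanol. The groups overlapped throughout. The averaged ethanol difference was 0.03 (SE 0.174, adjusted p = 0.952) with all libraries, and without WT ethanol library 2 it was 0.05, with a 95% interval from −0.28 to 0.38 and an adjusted p of 0.858. An annotated antisense gene, Gm11586, lies over 15.6% of the exon bases of Nags, and since the strand setting of the counting is not given in the sources used here, reads of the pair cannot be told apart.

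Ornithine transcarbamylase, encoded by Otc (ENSMUSG00000031173, chrX:10252305-10321024, plus strand), joins carbamoyl phosphate to ornithine to make citrulline. Otc measured 162, 171, 119 and 129 FPKM in WT controls and 199, 22.2, 95.3 and 70.6 FPKM in WT on ethanol. In LKO it spanned 118 to 142 FPKM on the control diet and 106 to 144 FPKM on ethanol. The WT ethanol libraries lay on both sides of the WT controls, with library 1 highest of all 16 and library 2 lowest. The averaged difference was −0.55 (SE 0.311, adjusted p = 0.333) with all libraries and −0.27 (SE 0.185, adjusted p = 0.331) without WT ethanol library 2. With WT ethanol library 1, the highest for Otc, left out as well, it was −0.48 and passed the test (adjusted p = 0.016). In that fit 28.4% of all genes passed, and Otc passed for this average in no other fit without WT ethanol library 2. Cps1 and Otc, which encode consecutive enzymes of the mitochondrial matrix, had averaged differences of opposite sign. Their ratio within a library was 3.09 to 5.7 in LKO controls and 6.43 to 10.9 in LKO on ethanol, while in WT the ranges of 2.09 to 4.29 and 1.64 to 11.4 overlapped.

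**Figure D2:**
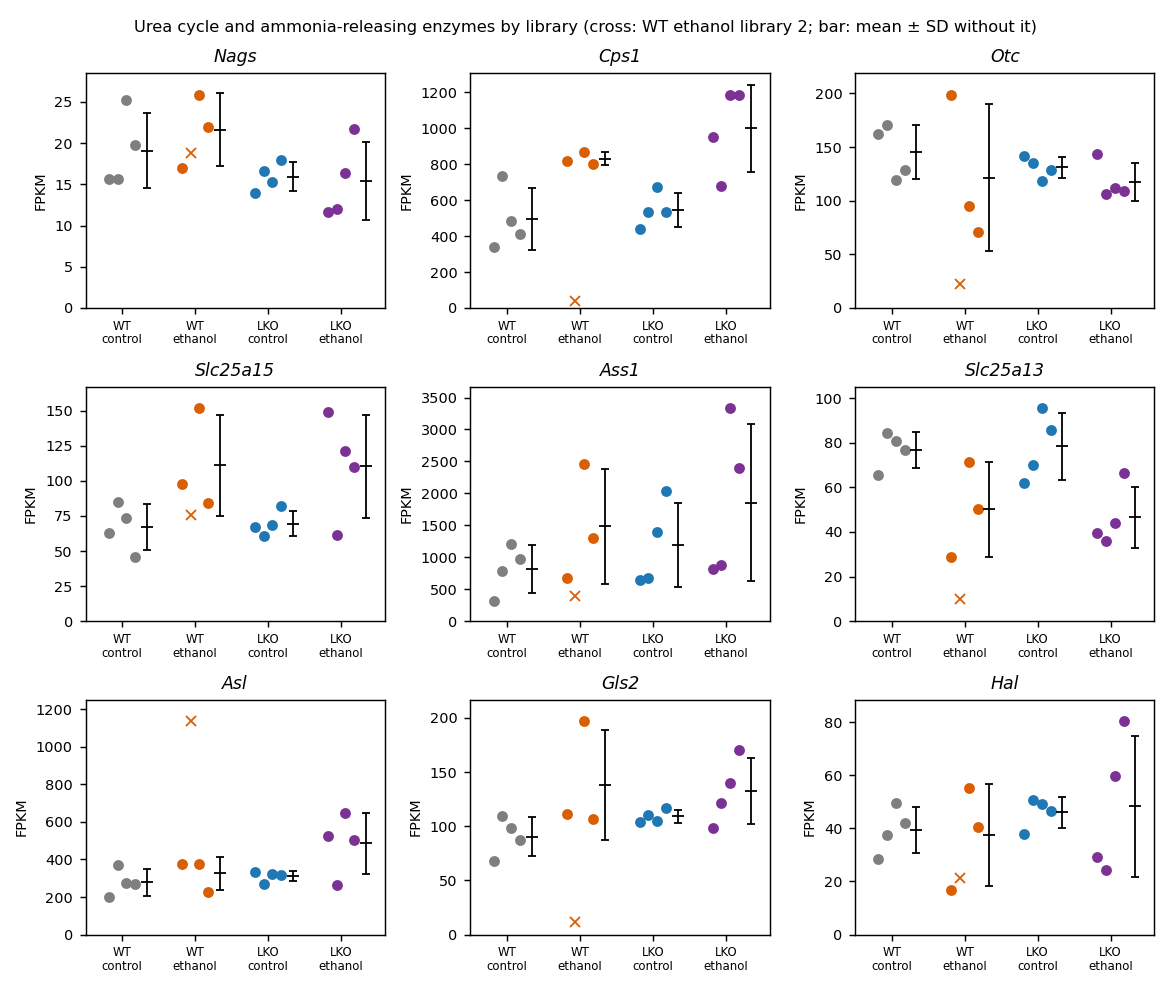
FPKM of the 9 members (y axis, each panel from 0) in the 4 libraries of each group, with WT ethanol library 2 as a cross and bars for the mean ± SD of each group without it. Cps1 is separated between the diets in LKO, Asl in the crossed library stands at 1137 FPKM, above every other library, and Cps1 there stands at 36.5 FPKM.

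Slc25a15 (ENSMUSG00000031482, chr8:22375551-22398597, minus strand) encodes the mitochondrial ornithine carrier, which brings ornithine into the matrix and takes citrulline out. It measured 63.2, 84.7, 73.6 and 46.1 FPKM in WT controls and 97.6, 75.6, 152 and 84.1 FPKM in WT on ethanol. The LKO values were 67.3, 60.5, 68.4 and 81.8 FPKM on the control diet and 149, 61.5, 121 and 110 FPKM on ethanol. In each genotype 2 or 3 ethanol libraries were above all controls and the rest lay within their range. The averaged difference was 0.59 (SE 0.217, adjusted p = 0.106) with all libraries and 0.66 (SE 0.196, adjusted p = 0.028), or 1.58-fold, without WT ethanol library 2. This call ended when any of 5 further libraries was left out, at an adjusted p of 0.0573 (WT control library 4 left out), 0.0845 (WT ethanol library 3), 0.0561 (LKO control library 2), 0.052 (LKO ethanol library 1) and 0.0502 (LKO ethanol library 3). It ended as well under median-of-ratios scaling, at 0.51 (adjusted p = 0.127).

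Slc25a13 (ENSMUSG00000015112, chr6:6041218-6217173, minus strand) encodes citrin, the liver's main mitochondrial aspartate-glutamate carrier, which supplies the cytosol with the aspartate that argininosuccinate synthetase consumes. It measured 65.4, 84.4, 80.7 and 76.6 FPKM in WT controls and 28.9, 9.91, 71.4 and 50.3 FPKM in WT on ethanol. In LKO it went from 62.1, 70, 95.6 and 85.6 FPKM on the control diet to 39.7, 35.8, 44.2 and 66.4 FPKM on ethanol. In each genotype 3 of 4 ethanol libraries were below all controls, and the remaining one lay inside their range. Without WT ethanol library 2 the averaged difference was −0.72 (SE 0.187, adjusted p = 0.0134), which is 39.4% lower. On the sides of the split it was −1.33 (from 1 ethanol library) and −0.39 for WT and −0.79 and −0.73 for LKO. It also passed with all libraries in place when the values were scaled by the median of ratios (−1.02, adjusted p = 0.00615) or quantile normalized (−0.93, adjusted p = 0.019).

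The related Slc25a12, which encodes aralar, the form of this carrier found mostly outside the liver, rose with ethanol. Its level was low, at 2.93 ± 0.42 and 2.49 ± 0.24 FPKM in WT and LKO on the control diet, and at 5.41 ± 1.3 and 4.65 ± 0.347 FPKM on ethanol (SD, n = 4 each). All 8 ethanol libraries were above all control libraries. The averaged difference was 0.69 (adjusted p = 0.00352) with all libraries and 0.77 (adjusted p = 0.000148) without WT ethanol library 2. Even on ethanol the ratio of aralar to citrin transcripts stayed low, from 0.0623 to 0.36, against 0.0265 to 0.0502 on the control diet. The ratio of the ornithine carrier to citrin, Slc25a15 to Slc25a13, was 0.602 to 1.0 in WT controls and 0.715 to 1.08 in LKO controls. On ethanol it was 1.67 to 7.63 in WT and 1.66 to 3.75 in LKO, so that the diets did not overlap in either genotype, WT ethanol library 2 included. Of the 36 pairs of members, 3 (8.33%) were separated by diet in this way in both genotypes, where 4.55% of all pairs of the 10645 genes kept and above 0 in every library were, and the others were Asl to Slc25a13 and Nags to Slc25a13. In WT alone it was 4 pairs (11.1%, against 15.7% of all pairs) and in LKO alone 10 pairs (27.8%, against 14%). All 3 pairs share Slc25a13 as the denominator, and 28.1% of 10644 genes set over Slc25a13 were separated in both genotypes in the same direction. These ratios were picked after their values were seen, so they are given as a description with no test.

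**Figure D3:**
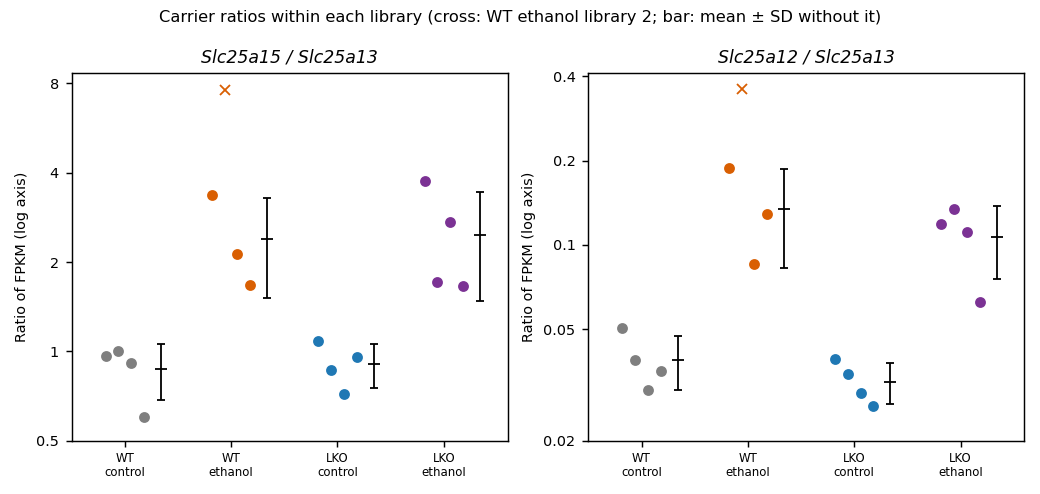
Ratios of FPKM within each library on log axes for Slc25a15 to Slc25a13 (left) and Slc25a12 to Slc25a13 (right) in the 4 groups, with WT ethanol library 2 as a cross and bars for the mean ± SD without it. The lowest ethanol library lies above the highest control library in both genotypes and both panels.

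The 250 bases before the annotated start of these 3 carrier genes are shown because the carriers moved in opposite directions with the diet. The sequences are from RefSeq on GRCm38.p6, each read 5′ to 3′ on the strand of its gene, which is minus for all 3, and capitals mark matches to the motifs searched. They lie at chr6:6217174-6217423 (Slc25a13), chr2:71367756-71368005 (Slc25a12) and chr8:22398622-22398871 (Slc25a15, the farther upstream of its 2 starts).
Slc25a13: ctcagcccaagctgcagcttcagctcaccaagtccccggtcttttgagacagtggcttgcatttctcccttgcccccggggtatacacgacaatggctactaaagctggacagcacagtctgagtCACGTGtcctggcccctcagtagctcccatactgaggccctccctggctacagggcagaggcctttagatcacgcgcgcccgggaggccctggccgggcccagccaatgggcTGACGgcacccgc
Slc25a12: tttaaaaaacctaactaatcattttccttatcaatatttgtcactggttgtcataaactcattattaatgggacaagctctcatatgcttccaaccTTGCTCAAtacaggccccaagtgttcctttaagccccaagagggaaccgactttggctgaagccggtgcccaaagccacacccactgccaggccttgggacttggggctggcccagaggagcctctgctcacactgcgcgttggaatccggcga
Slc25a15: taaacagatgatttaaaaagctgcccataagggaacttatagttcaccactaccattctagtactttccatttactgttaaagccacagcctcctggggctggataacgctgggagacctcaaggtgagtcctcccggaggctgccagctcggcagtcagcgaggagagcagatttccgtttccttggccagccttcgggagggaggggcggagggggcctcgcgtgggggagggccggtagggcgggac
The motifs, searched on both strands, were the TATA box TATAAA, the cyclic AMP element core TGACG, the C/EBP pattern TTGCNNAA, the E-box CACGTG and the HNF4 core AAAGTCC. Over the same window they occur in 12.4, 17.8, 9.56, 6.02 and 3.58% of 32851 RefSeq promoters. The Slc25a13 window holds 1 CACGTG and 1 TGACG, the Slc25a12 window holds 1 TTGCNNAA match, and the Slc25a15 window shown holds none of the 5. The window of the other Slc25a15 start, at chr8:22398278-22398527, holds 1 CACGTG, the motif also found for Slc25a13. A match describes letters only, and binding was not measured here.

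Argininosuccinate synthetase, encoded by Ass1 (ENSMUSG00000076441, chr2:31470207-31520672, plus strand), condenses citrulline with aspartate and is often held to limit the rate of the cytosolic part of the cycle. Ass1 measured 313, 779, 1204 and 970 FPKM in WT controls and 681, 402, 2461 and 1308 FPKM in WT on ethanol. In LKO it measured 653, 677, 1403 and 2040 FPKM on the control diet and 818, 877, 3338 and 2397 FPKM on ethanol. In every group libraries 3 and 4 were above libraries 1 and 2, and the diets overlapped in both genotypes. Averaged over genotypes, the difference was 0.48 (SE 0.427, adjusted p = 0.578) with all libraries and 0.69 (SE 0.407, adjusted p = 0.256) without WT ethanol library 2. With the term for the split added, it was 0.57 (SE 0.197, adjusted p = 0.0383). The smaller error follows from a split drawn from these same values, so this call is no added support. The sides taken apart gave 0.46 (from 1 ethanol library) and 0.73 for WT and 0.35 and 0.74 for LKO. Gm5424, a processed pseudogene on chromosome 10, matches the Ass1 transcript over 1240 bases at 99.5% identity and was listed at 0.254 to 18.8 FPKM, so some reads could have been assigned to either.

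For Ass1 the split of the libraries was larger than the difference between diets. Libraries 3 and 4 exceeded libraries 1 and 2 by 1.40 on the log2 scale for Ass1, or 2.64-fold, in the 15 libraries. Hal, Slc25a13 and Nags were likewise higher there, by 0.79, 0.47 and 0.42, and Otc lower, by −0.43. The remaining members differed by 0.25 or less. These sides came from the data and are no groups of the study, so the values are given with no test. What set the sides apart was not tested.

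**Figure D4:**
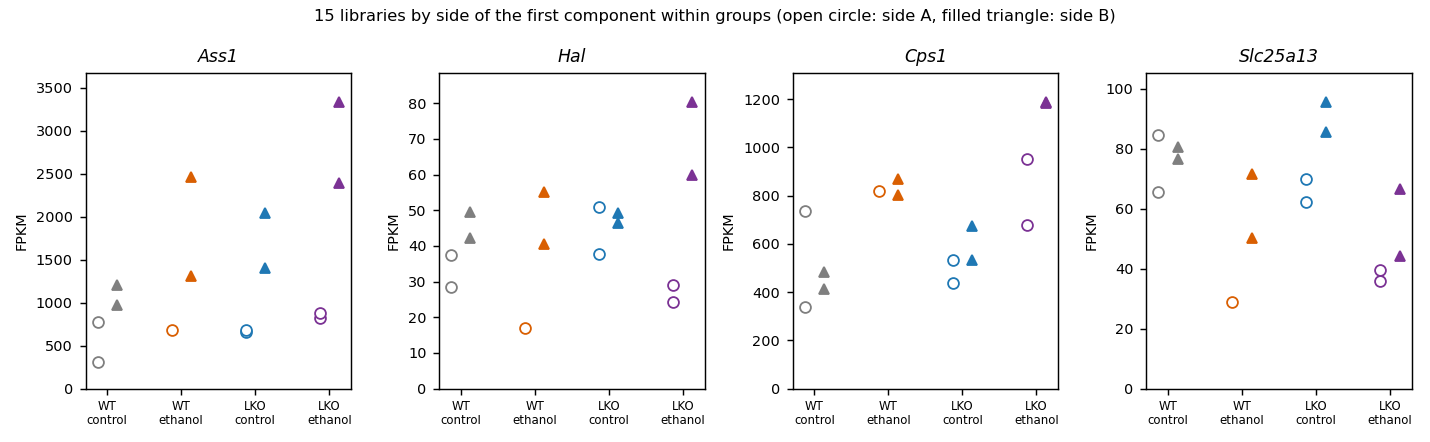
FPKM (y axis, each from 0) of Ass1, Hal, Cps1 and Slc25a13 in the 15 libraries other than WT ethanol library 2, with libraries 1 and 2 of each group as open circles and libraries 3 and 4 as filled triangles. For Ass1 every triangle lies above the circles of its group. Within each genotype the circles for Hal on ethanol lie below those on the control diet, while the triangles do not.

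Argininosuccinate lyase, encoded by Asl (ENSMUSG00000025533, chr5:130011258-130029247, minus strand), splits argininosuccinate into arginine and fumarate. Asl stood at 198, 368, 275 and 269 FPKM in WT controls and at 374, 1137, 378 and 225 FPKM in WT on ethanol. In LKO the levels were 335, 270, 325 and 318 FPKM on the control diet and 525, 263, 650 and 503 FPKM on ethanol. WT ethanol library 2 was the highest of all 16 by 1.75-fold, the reverse of its place for Cps1. The averaged difference was 0.63 (SE 0.287, adjusted p = 0.212) with all libraries and 0.40 (SE 0.198, adjusted p = 0.174) without that one. With LKO ethanol library 2, the lowest of its group for Asl, left out as well it was 0.53 and passed (adjusted p = 0.0404). In that fit 16.4% of all genes passed, and Asl passed for this average in no other fit without WT ethanol library 2.

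Gls2 (ENSMUSG00000044005, chr10:128194457-128210004, plus strand) encodes the liver glutaminase, which frees ammonia from glutamine in periportal mitochondria beside carbamoyl phosphate synthetase. It measured 67.7, 109, 98.3 and 87 FPKM in WT controls and 111, 11.4, 197 and 107 FPKM in WT on ethanol. In LKO it ranged from 104 to 117 FPKM on the control diet and from 98.3 to 170 FPKM on ethanol. The averaged difference was −0.02 (SE 0.405, adjusted p = 0.984) with all libraries and 0.41 (SE 0.163, adjusted p = 0.0909) without WT ethanol library 2, where Gls2 was 5.92-fold below the lowest of the others. The exons of Gls2 overlap those of Spryd4, on the opposite strand, over 2.79% of their bases.

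Hal (ENSMUSG00000020017, chr10:93488768-93519304, plus strand) encodes histidase, which releases ammonia from histidine in forming urocanate. It measured 28.6, 37.5, 49.4 and 42.2 FPKM in WT controls and 16.9, 21.3, 55.1 and 40.6 FPKM in WT on ethanol. In LKO it measured 37.8, 50.8, 49.1 and 46.4 FPKM on the control diet and 29.1, 24.2, 59.9 and 80.4 FPKM on ethanol. The ethanol groups were spread more widely than the controls and lay on both sides of them. Among libraries 1 and 2 the difference was −0.92 in WT, from 1 ethanol library, and −0.70 in LKO, and among libraries 3 and 4 it was 0.05 and 0.53. Averaged over genotypes, Hal differed by −0.22 (SE 0.279, adjusted p = 0.717) with all libraries and by −0.14 (SE 0.273, adjusted p = 0.762) without WT ethanol library 2, a direction seen in libraries 1 and 2 and not in libraries 3 and 4.

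The comparison of LKO with WT asked whether loss of Zfp36l1 in the liver changed these transcripts. No member passed by limma in any of the 3 genotype comparisons or the interaction with all 16 libraries. On the control diet it was 0 of 9 (0.00885% of all genes), on ethanol 0 of 9 (0.0797%), averaged over diets 0 of 9 (0.142%), and for the interaction 0 of 9 (0.0% of all genes). At an unadjusted p under 0.05 the counts were also 0 of 9 in all 4, where 3.45, 11.9, 10.4 and 3.2% of all genes did so. Without WT ethanol library 2 the counts at an adjusted p under 0.05 remained 0 of 9, where 0.0443, 0.221, 1.07 and 0.0% of all genes passed. The counts at an unadjusted p under 0.05 were then 0, 0, 1 (Nags) and 0, where 9.6, 17.1, 22.7 and 4.42% of all genes did so. With the term for the split as well, the counts at an adjusted p under 0.05 were again 0 of 9, where 0.0797, 1.58, 11.1 and 0.0% of all genes passed. For no member did the genotypes stand apart, where 9.25% of all genes did on the control diet, and 2.69% on ethanol or 7.03% without WT ethanol library 2.

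On average over the diets, without WT ethanol library 2, Nags differed by −0.35 between LKO and WT (SE 0.157, 95% interval −0.69 to −0.02, adjusted p = 0.198), and with all libraries by −0.33 (adjusted p = 0.527). For Cps1 the difference was 0.21 without that library, with an interval from −0.17 to 0.59, and 0.77 with it, with an interval from −0.30 to 1.84. With all libraries, the difference on the ethanol diet alone was 1.35 for Cps1 (SE 0.719, adjusted p = 0.475), and 0.23 without that library. The ethanol difference of Cps1 in LKO exceeded that in WT by 0.05, with an interval from −0.71 to 0.80, and that of Slc25a13 by −0.07, with an interval from −0.86 to 0.73, both without WT ethanol library 2. With all 16 libraries these were 1.16 (−0.98 to 3.31) for Cps1 and 0.47 (−0.81 to 1.74) for Slc25a13, so that 1 library set the size of the former and the sign of the latter. These intervals reach or exceed about the size of the ethanol difference itself, so a like response in the genotypes was not shown.

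The genes around the cycle were taken as lists by function, and their counts stand beside the 7.78% of all genes that passed in this comparison with all 16 libraries. With ethanol averaged over genotypes, 1 of 14 genes for glutamine, glutamate and aspartate nitrogen rose (Slc25a12) and 2 fell, namely Glul and Aspa. Glul, the perivenous glutamine synthetase, differed by −1.32 (adjusted p = 0.0167) and Aspa, which splits N-acetylaspartate, by −0.61 (adjusted p = 0.0219). Median differences were 0.38 for this list and 0.02 for all genes. Among 26 genes of amino acid breakdown that frees ammonia, 1 rose and 2 fell, with a median of −0.20. Sdsl, related to serine dehydratase, rose by 1.43 (adjusted p = 0.00184), or by 1.22 (adjusted p = 0.000109) without WT ethanol library 2. Without that library it went from 7.99 ± 1.73 to 25.8 ± 5.5 FPKM in WT, and from 8.07 ± 1.31 to 15.4 ± 2.43 FPKM in LKO (SD, n = 3 for WT on ethanol and 4 otherwise). Prodh2, which acts in hydroxyproline breakdown, and Haao, of the kynurenine pathway, fell by 0.73 (adjusted p = 0.0311) and 0.89 (adjusted p = 0.0325).

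Of 8 genes on the carbamoyl phosphate and arginine side, 0 rose and 3 fell, with a median of −0.12. Car5a, the mitochondrial carbonic anhydrase that supplies bicarbonate to carbamoyl phosphate synthetase, went from 38.2 ± 5.92 to 16.6 ± 5.13 FPKM in WT and from 47.7 ± 4.63 to 23 ± 11.7 FPKM in LKO (SD, n = 4 each), an averaged difference of −1.17 (adjusted p = 0.00343). Its difference was opposite in sign to that of Cps1 and also passed without WT ethanol library 2 (−1.08, adjusted p = 0.00175). Sirt3, a mitochondrial deacetylase, and Gamt, the last enzyme of creatine synthesis, were the other two, at −1.19 (adjusted p = 0.0306) and −1.11 (adjusted p = 0.0151). Among 11 transporters of amino acids, ammonia and urea, 0 rose and 1 fell, the glutamine transporter Slc38a3 (−1.01, adjusted p = 0.0172), with a median of −0.44. Of 14 regulators of urea cycle genes, 0 rose and 2 fell, with a median of −0.31. These were Klf15 (−1.67, adjusted p = 0.0329), a transcription factor of amino acid catabolism, and Nr3c1 (−0.51, adjusted p = 0.0475), the glucocorticoid receptor. Without WT ethanol library 2 the counts of higher and lower genes were 4 and 2, 6 and 2, 1 and 3, 2 and 2, and 1 and 2 for the 5 lists in this order, where 14.8% of all genes passed upward and 5.7% downward. The genes named above as fallen passed there as well, at adjusted p of 0.000783 (Sirt3) to 0.0162 (Nr3c1). Their differences were then −1.29 for Glul, −0.55 for Aspa, −0.79 for Prodh2, −0.89 for Haao, −0.83 for Slc38a3 and −0.47 for Nr3c1. Klf15 and Sirt3, at 4.0 and 4.22 FPKM in WT ethanol library 2 and below every other library there, moved to −1.26 and −0.86, and Gamt stood at −1.14.

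Markers of liver zones were read beside these differences. Of the 9 periportal markers measured, 0 were called in either direction with all 16 libraries, and their summed level was 661 FPKM in WT ethanol library 2 against 1161 to 3316 FPKM in the 15 others. In that library Pck1 and Cyp2f2 stood at 12.6 and 4.44 FPKM, against at least 219 and 102 FPKM elsewhere. Sds, Hsd17b13, Etnppl and Ctsc also lay below all 15 others there, where 52.3% of all genes did. The rest of the list was not low there. Pigr stood at 560 FPKM, above the 192 to 428 FPKM of the other libraries, and Cdh1 and Sult5a1 lay within the range of those libraries. Of the 11 pericentral markers measured, 0 rose and 3 fell with ethanol, namely Glul, Cyp2e1 (−1.28, adjusted p = 0.00707) and Cyp7a1 (−2.40, adjusted p = 0.00459), the latter 2 at −1.33 and −2.26 without WT ethanol library 2. Their summed level was 3344 to 5556 FPKM in WT controls and 1315 to 1789 FPKM in WT on ethanol, library 2 included, and 3194 to 5611 FPKM and 1411 to 4453 FPKM in LKO on the control and ethanol diets. Summed endothelial and stellate cell markers were also lowest in WT ethanol library 2, at 12.8 and 11.6 FPKM against at least 31.2 and 37.8 FPKM elsewhere, while those of cholangiocytes were highest there, at 8.62 FPKM against at most 4.76 FPKM. With all 16 libraries and ethanol averaged over genotypes, 1 of 6 endothelial markers rose (Lyve1, 1.75, adjusted p = 0.0208) and 0 fell, with a list median of −0.06 and Clec4g at −1.06 (adjusted p = 0.0985). Sox9, the 1 cholangiocyte marker to pass the filter, did so only through ethanol libraries, so no test is given for it: it stood at 0.202 to 0.834 FPKM on the control diet and 0.646 to 3.01 FPKM on ethanol. Of the 7 Kupffer cell and macrophage markers, 1 rose in WT (Marco, 1.71, adjusted p = 0.0379), where 4.18% of all genes passed. Marco stood there at 5.73 to 12.8 FPKM on the control diet and 18 to 49.6 FPKM on ethanol. In LKO 0 were called, where 0.425% of all genes passed, and Marco differed by 0.09. No gene passed for the interaction with all 16 libraries, so a different response of Marco in the genotypes was not shown. The summed level of the Kupffer cell and macrophage markers was 93.2 to 277 FPKM in WT controls and 160 to 315 FPKM in WT on ethanol, library 2 aside at 98.2 FPKM. In LKO it was 92.9 to 314 FPKM on the control diet and 54.6 to 318 FPKM on ethanol. Of the 6 stellate cell markers 0 were called with all libraries. Pdgfrb passed the filter mainly through ethanol libraries, so no test of it alone is given. It stood at 0.413 to 1.31 FPKM on the control diet and 0.317 to 3.33 FPKM on ethanol. The sum of the stellate cell markers was 37.8 to 125 FPKM in WT controls, 112 to 164 FPKM in WT on ethanol without library 2, and 43.8 to 120 and 83.6 to 118 FPKM in LKO. Summed lymphocyte and neutrophil markers were low, at 1.69 to 6.13 FPKM in WT controls and 2.28 to 4.63 FPKM in WT on ethanol, library 2 aside at 8.01 FPKM. In LKO they were at 2.53 to 4.11 FPKM on the control diet and 2.57 to 11.4 FPKM on ethanol. The part of all these markers in the members' differences was not tested. The pancreatic markers Cpa1 and Prss2 were at 0 in all 16 libraries, and the kidney marker Umod was at 0 in 15 of 16. Cela1 of the pancreas list stood at 7.21 to 27 FPKM and Fabp2 of the kidney and gut list at 30.2 to 156 FPKM over the libraries, and Pnlip stood at 0.409 FPKM in WT ethanol library 2 against at most 0.0276 FPKM elsewhere.

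Genes whose levels followed the members most closely were sought by the Pearson correlation with the mean of the members' standardised log2 values. Over all 16 libraries these were Uroc1 (0.92), which takes up the product of histidase, Gm5424 (0.91), the pseudogene copy of Ass1, Abat (0.88), the GABA transaminase, Abca3 (0.88) and Tmem86b (0.86). Over the 15 libraries they were Got1 (0.84), the cytosolic aspartate aminotransferase, Uroc1 (0.82), Gm5424 (0.81), Abat (0.78) and Tmem86b (0.77). The members themselves correlated with that mean at −0.28 (Otc) and 0.21 (Slc25a13) up to 0.85 (Ass1) over the 15 libraries, and at −0.11 (Asl) to 0.86 (Gls2) over the 16. Otc and Slc25a13 thus followed that mean least without WT ethanol library 2, and Asl did with it. Each member is itself part of the mean, which raises its own coefficient. The libraries share diets, genotypes and the split, so these coefficients describe and test nothing.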

How the data were processed

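Liver RNA of 16 libraries was analysed from 1 table of FPKM values deposited by the authors, with 1 value per gene and library. The submitters' processing notes name fastp, STAR 2.6.1, HTSeq, DESeq2 and the build mm10; how each was used, the annotation and the strand setting are not given in the sources used here. Symbols and lengths were taken from GENCODE M21 on GRCm38, and promoter sequences from RefSeq. Samples were grouped by their treatment label, and library numbers follow the order of the records.

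Genes with at least 1 FPKM in at least 4 libraries were kept (11298). Values were taken as log2(FPKM + 1), a scale that understates changes of low genes, and fitted with limma 3.58.1 in R 4.3.3 (4 group means, eBayes with trend, two-sided), with Benjamini-Hochberg adjustment over all genes kept. The threshold for a call was an adjusted p under 0.05. The procedure was tested on simulated data, with a spread set beforehand. For ethanol against the control diet in WT it called 96.9% of 4-fold changes and 44% of 2-fold changes. A 2-fold change was thus missed more often than called. Recovered reads served to give depth only, and FPKM, not reads, were tested.

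The members and gene lists were chosen with earlier results of these data known, as was leaving out WT ethanol library 2 and the term for the split. Pathway genes named are from those that passed in any comparison or had the smallest p in their list. Genes that correlated most with the members are also named, and single marker genes were picked after their values were seen. One gene each of the transporter and pericentral lists was not analysed here, and 1 gene each of the members and the periportal list is not reported here. Alternatives were another pseudocount, no filter, 2 other scalings, array weights, fits of single pairs of groups, and leaving out each library.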

Additional observations from a re-analysis of the deposited data

Results flagged for a closer look

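Each member was examined for 1 library far from the other 3 of its group, by the gap to its neighbour as a share of the group's range (Dixon's ratio, above its 95% critical value). Of 36 sets of 4 values, 2 met this, and chance gives about 1 in 20. In the WT ethanol group, Cps1 stood at 36.5 FPKM in library 2 with a gap of 0.919 of the range, and Asl at 1137 FPKM in the same library with a gap of 0.832. Both values come from the library with 22.5% mitochondrial reads, in which 4 of 9 members lay below all other libraries, where 52.3% of all genes did, and 1 of 9 above them, where 13.6% did. The number of such sets was about that given by chance, and the members are not set apart from other genes in that library by these counts.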

How the results depend on the processing

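No paired analysis was possible because the labels give no replicate numbers shared between groups. Some library titles carry consecutive numbers across the diets, and the labels do not say what these numbers mark. With all 16 libraries, the number of members called for ethanol averaged over genotypes was 0 (7.78% of all genes). It was 1 with median-of-ratios scaling (11.9%), 1 with quantile normalization (12.9%) and 7 with array weights (36.7%). With WT ethanol library 2 left out and the term for the split added it was 4 (32.6%). On leaving out each library it was 0 to 3 (4.59 to 20.5%). In WT it was 0 (4.18%), against 1 with median-of-ratios scaling (6.77%) and 5 with array weights (38.4%). On leaving out each library it was 0 to 1 (1.29 to 9.48%), and 2 without WT ethanol library 2 and with the term (19.7%). In LKO it was 0, against 1 with array weights (7.69%) and 2 without that library and with the term (10.7%). Array weights changed every library, with 0.0418 for library 2 and 5 for library 3 of WT on ethanol, and they also called 1 member for LKO against WT on ethanol (30.7% of all genes) and 1 averaged over diets (34.1%). The cause was not tested.

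Taken without WT ethanol library 2, the averaged count was 3 (20.5% of all genes). It was 2 under median-of-ratios scaling (19.7%) and 2 to 4 on leaving out a further library (13.6 to 28.4%). In WT this count was 0 (9.48% of all genes), with 1 under median-of-ratios scaling (8.3%) and 1 under quantile normalization (9.72%). It was 2 with the term for the split (19.7%) and 0 to 1 on leaving out a further library (1.73 to 21.8%). In LKO it was 0 (3.62% of all genes), with 1 under median-of-ratios scaling (4.74%) and 1 under quantile normalization (4.43%). It was 2 with the term for the split (10.7%) and 0 to 1 on leaving out a further library (1.28 to 5.77%). Cps1 and Slc25a13 kept their averaged call in all of these 15-library fits.

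Several differences that did not pass changed sign. With array weights the WT values were 0.82 for Cps1, 0.94 for Gls2 and 0.40 for Hal, the averaged values 0.61 for Gls2 and 0.23 for Hal, and the LKO value 0.064 for Hal. Without WT ethanol library 2 and with the term for the split, the WT values were 0.78 for Cps1 and 0.53 for Gls2, and the averaged value for Gls2 was 0.39. Without that library alone they were 0.81, 0.57 and 0.41, so the sign changed before the term was added. Quantile normalization gave 0.10 for averaged Gls2. On leaving out each library, the WT values ranged from −0.70 to 0.81 for Cps1, −0.76 to 0.57 for Gls2 and −0.041 to 0.83 for Ass1. The averaged values ranged from −0.26 to 0.41 for Gls2 and −0.056 to 0.098 for Nags, and the LKO values from −0.38 to 0.18 for Hal and −0.25 to 0.034 for Nags. Without WT ethanol library 2, leaving out a further library gave averaged values from −0.31 to 0.099 for Hal and −0.035 to 0.13 for Nags, WT values from −0.54 to 0.28 for Hal, and LKO values from −0.38 to 0.18 for Hal and −0.25 to 0.034 for Nags. In the same 15 libraries the averaged value for Nags was −0.09 with median-of-ratios scaling and −0.074 with quantile normalization, and its WT values were −0.029 and −0.03.

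With 4 libraries a group, and 3 for WT on ethanol without library 2, the intervals given set the precision. Recovered reads for Gls2 numbered 291 in that library, the fewest for any member.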
